A study of Mus musculus with 12 samples.

Results

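The genes of MHC class I antigen presentation were followed as 3T3-L1 preadipocytes, mouse fibroblasts that can become fat cells in culture, differentiated with and without knockdown of Fto, which encodes an RNA demethylase of N6-methyladenosine. The pathway was taken as 10 named genes of the 55487 in the table. They were H2-K1 and H2-D1 (the class I heavy chains), B2m (the light chain), Tap1, Tap2 and Tapbp (peptide transport and loading), Psmb8, Psmb9 and Psmb10 (the inducible proteasome subunits) and Nlrc5 (a transcriptional activator of class I genes). All 10 were chosen by name, with earlier results of these data known. All 10 were among the 15968 genes tested, those with a TPM (a share of all transcripts, corrected for transcript length) of at least 1 in at least 2 libraries.

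RNA was sequenced from cells infected with lentivirus and selected with puromycin. The virus encoded, under a U6 promoter, either a scrambled short hairpin RNA (the shScram line) or one that targets Fto (the shFto line). The study lists a pair of Fto hairpins, and the sources used here do not say which was sequenced. Both lines were collected as preadipocytes (Pre), at mitotic clonal expansion in the induction cocktail of isobutylmethylxanthine, dexamethasone and insulin (MCE), and at the later stage in insulin medium (Diff). There were 6 groups with 2 libraries in each. Every knockdown comparison sets one line against the other, so knockdown and any other difference between the lines cannot be told apart. The libraries were not said to come from separate cultures, so p-values measure only the spread between these libraries, which may be technical.

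In the libraries as a whole, between 20853 and 24018 genes were above 0. Fto was 52.7 to 73.5 TPM in the shScram libraries and 5.51 to 7.47 TPM in the shFto libraries, a log2 fold change of -3.11 at Pre, -3.02 at MCE and -3.15 at Diff (adjusted p = 4.10e-06, 2.42e-06 and 8.89e-07 by limma). Replicate 1 of shScram at Diff carries a treatment label that contradicts its title, and it was grouped by its title. Replicate 1 of shScram at Pre stood apart. Across the 15968 genes, which are not independent replicates, its log2(TPM + 1) correlated with that of the other replicate at 0.939, against 0.990 to 0.993 within the other groups. With the 10 libraries of the other groups its median correlation was 0.881, against 0.936 for its partner and 0.929 to 0.946 for the rest. All groups share an estimate of the spread, so this pair of libraries bears on every test. Results are also given without replicate 1, and without replicate 2 where the value or call at Pre turns on it. All 7 fibroblast and preadipocyte markers were detected in every group, and their sum moved with the lines, at 3642 to 4031 TPM in shScram and 5331 to 5816 TPM in shFto cells at MCE and 6666 to 7037 TPM against 9071 to 9493 TPM at Diff, with 4925 to 8971 TPM against 7648 to 7723 TPM at Pre. Lymphocyte markers summed to at most 0.182 TPM. The 8 markers of macrophages and dendritic cells summed to 5.15 to 8.44 TPM in shScram and 9.50 to 11.0 TPM in shFto preadipocytes, and to 1.62 to 3.62 TPM at the later stages, with Adgre1 and Tyrobp at 0 in every library. The part of these cell types in the results was not tested. In these bulk samples, fewer cells of a type and less RNA per cell cannot be told apart.

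Class I molecules display peptides from inside the cell to cytotoxic T lymphocytes, and nearly all nucleated cells carry them. Proteasomes cut proteins into peptides, the TAP transporter moves the peptides into the endoplasmic reticulum, and tapasin helps to load them onto a heavy chain bound to beta-2 microglobulin. Interferons are the classical inducers of the whole set, and NLRC5 acts with the RFX factors, CREB family factors and NF-Y at a conserved module upstream of class I genes.

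Of the 10 genes, 7 lie within the MHC on chromosome 17 of GRCm38 between 33915899 and 35267499. Psmb9, Tap1, Psmb8 and Tap2 adjoin each other there in a block of 34335 bases from 34181987 to 34216321. H2-K1 (33996017 to 34000347) and Tapbp (33915899 to 33929292) lie on one side of this block and H2-D1 (35262730 to 35267499) on the other. B2m lies on chromosome 2 (122147686 to 122153083), and Nlrc5 (94434356 to 94527272) and Psmb10 (105935735 to 105938444) on chromosome 8. All are protein coding. Tap1 and Psmb9 overlap at their 5′ ends on opposite strands, and genes also overlap B2m, Tap2, Tapbp, Psmb8, Psmb10 and Nlrc5. Use of strand in counting is not stated, so reads in these overlaps could not be assigned with certainty.

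The sequences around the start sites are shown because several of these genes moved together and because 2 pairs among them share promoter sequence. RefSeq promoter windows (GRCm38.p6, from 250 bases before to 50 after the start) matched 8 members, and Tap2 and Nlrc5 had none. In the lines below, which run from 230 bases before to 20 after the start, capitals mark 4 motifs searched on both strands: TTCNNTTTC, a form of the interferon response element; TTCNNNGAA, the STAT element, which reads the same on both strands; GGGNNTTCC, a form of the NF-kappaB element; and CCAAT, the NF-Y element.
H2-K1 (chr17:34000328-34000577, minus strand): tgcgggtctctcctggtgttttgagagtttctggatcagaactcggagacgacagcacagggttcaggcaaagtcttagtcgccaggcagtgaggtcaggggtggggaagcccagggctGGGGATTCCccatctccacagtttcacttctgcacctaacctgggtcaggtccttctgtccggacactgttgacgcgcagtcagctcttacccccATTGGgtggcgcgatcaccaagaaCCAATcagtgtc
H2-D1 (chr17:35262864-35263113, plus strand): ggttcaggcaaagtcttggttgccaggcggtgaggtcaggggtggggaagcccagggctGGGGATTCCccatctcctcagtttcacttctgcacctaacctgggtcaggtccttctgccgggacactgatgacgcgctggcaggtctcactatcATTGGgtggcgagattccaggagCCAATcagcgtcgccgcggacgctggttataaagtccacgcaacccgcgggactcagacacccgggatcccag
B2m (chr2:122147457-122147706, plus strand): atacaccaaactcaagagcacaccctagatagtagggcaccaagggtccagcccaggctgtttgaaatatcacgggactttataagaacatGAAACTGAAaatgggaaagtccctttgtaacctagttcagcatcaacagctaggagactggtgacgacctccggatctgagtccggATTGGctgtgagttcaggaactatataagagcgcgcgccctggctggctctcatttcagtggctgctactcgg
Tap1 (chr17:34187326-34187575, plus strand): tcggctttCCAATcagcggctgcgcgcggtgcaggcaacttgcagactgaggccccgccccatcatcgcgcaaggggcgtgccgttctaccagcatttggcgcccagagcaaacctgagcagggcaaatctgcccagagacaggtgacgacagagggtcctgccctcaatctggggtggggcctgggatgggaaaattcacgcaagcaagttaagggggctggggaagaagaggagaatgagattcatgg
Psmb8 (chr17:34197965-34198214, plus strand): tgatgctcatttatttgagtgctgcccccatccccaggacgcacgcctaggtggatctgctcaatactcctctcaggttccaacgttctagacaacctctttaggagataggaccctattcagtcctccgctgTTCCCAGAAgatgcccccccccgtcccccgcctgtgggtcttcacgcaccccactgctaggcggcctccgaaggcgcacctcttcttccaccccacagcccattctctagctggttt

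The windows of H2-K1 and H2-D1 share an unbroken run of 47 bases that holds GGGGATTCC, followed in each by ATTGG and CCAAT. That motif was in 5.72% of 27025 RefSeq windows and in these 2 of the 8 members. The Tap1 window and that of Psmb9 coincide over 275 bases on opposite strands, so the genes start from the same stretch in opposite directions, and its CCAAT at one end is the ATTGG just before the start of Psmb9. The searched form of the interferon response element was found in B2m alone, as GAAACTGAA on the minus strand (8.57% of all windows). The STAT element was found in Psmb8 alone (8.47%). Other forms of these elements were not searched. The lines of H2-K1 and H2-D1 both hold agtttcacttct after GGGGATTCC, a stretch that the searched form does not match. The lack of a match therefore does not show that a window has no such element. CCAAT was in 6 of the 8 members' windows and in 37.9% of all windows. A match of letters is a description and not evidence of binding.

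The question behind the main comparison was how Fto knockdown altered the transcriptome at each stage. H2-K1, Tap1, Psmb8, Psmb9 and Nlrc5 were higher in shFto cells at each of the 3 stages, H2-D1 at Pre and Diff and Tap2 at Pre, while B2m, Tapbp and Psmb10 passed at no stage. A gene passed, or was called, where its p from limma, adjusted by Benjamini-Hochberg over all genes tested, was under 0.05. At Pre 7 of the 10 genes passed the test upward and none downward, against 15.9% of all tested genes upward and 12.3% downward. At MCE 5 of 10 did (background 10.5% upward and 7.26% downward) and at Diff 6 of 10 (11.9% upward and 9.31% downward), again none downward. The median log2 fold change of the 10, on the log2(TPM + 1) scale used for all fold changes here, was 1.24 at Pre, 0.97 at MCE and 1.05 at Diff, against 0.08, 0.05 and 0.03 over all genes. Without replicate 1 of shScram at Pre the counts upward were 8, 8 and 10 (backgrounds 16.1%, 25.2% and 25.3%). In that fit Tapbp passed downward at Pre (12.9% of all genes did), and the median at Pre was 0.82. Without replicate 2 instead they were 9, 8 and 10 (37.6%, 25.1% and 25.2%), none passed downward, and the median at Pre was 1.98.

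A gene's groups were called not overlapping where both shFto libraries lay above both shScram libraries of the stage. This held for 8 of the 10 genes at Pre, where 33.6% of all genes met it, and for all 10 at MCE (41.1%) and at Diff (39.0%). It held at all 3 stages for 8 genes, all but B2m and Tapbp, against 16.6% of all genes. The plot of TPM by library gives all these values.

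**Figure D1:**
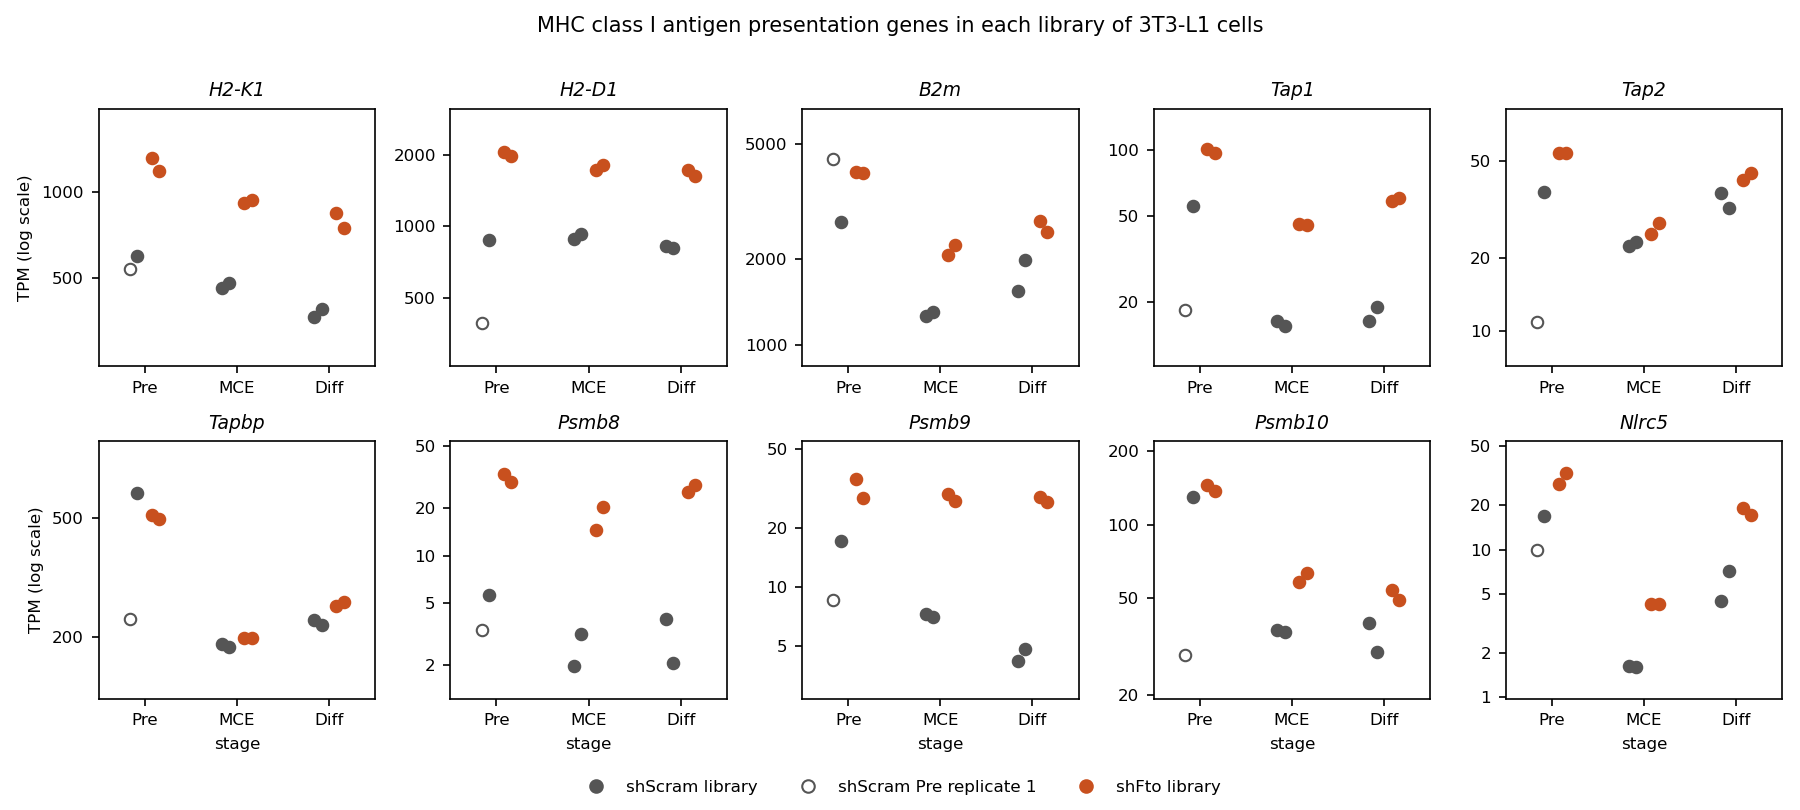
TPM (log scale, a separate axis per gene) of the 10 genes in each of the 12 libraries by stage, with shScram in grey and shFto in orange, and replicate 1 of shScram at Pre as an open circle. The shFto libraries lie above the shScram libraries at every stage for all genes but B2m and Tapbp, whose groups overlap at Pre, and the open circle is the lowest Pre value of every gene but B2m, where it is the highest.

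The classical heavy chains H2-K1 and H2-D1, which bind the peptide, were both higher in shFto cells. In shScram cells H2-K1 was 538 and 596 TPM at Pre, 461 and 482 TPM at MCE, and 367 and 390.5 TPM at Diff. In shFto cells it was 1315 and 1187 TPM at Pre, 915 and 939.7 TPM at MCE, and 845 and 747 TPM at Diff. Every shFto library lay above every shScram library of any stage, and in both lines the values were highest at Pre and lowest at Diff. The log2 fold change of H2-K1 was 1.14 ± 0.12 (SE, adjusted p = 0.000655 by limma) at Pre, 0.97 ± 0.12 (0.000971) at MCE and 1.07 ± 0.12 (0.000472) at Diff. It was called at MCE and at Diff under each of 23 other settings of the fit, and at Pre under 22 of them.

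For H2-D1 the shScram values were 391 and 879 TPM at Pre, 886 and 929.6 TPM at MCE, and 823 and 813 TPM at Diff. The shFto values were 2062 and 1976 TPM at Pre, 1727 and 1822 TPM at MCE, and 1724 and 1638 TPM at Diff. Here too no shFto library fell to the level of any shScram library, while the low shScram value at Pre came from the replicate that stood apart. The log2 fold change was 1.78 ± 0.30 (SE, adjusted p = 0.00467 by limma) at Pre, 0.97 ± 0.30 (0.0568) at MCE, which missed the threshold, and 1.04 ± 0.30 (0.0382) at Diff. Without that replicate it was 1.20, 0.97 and 1.04 with SE of 0.07 to 0.09, and all 3 passed (adjusted p = 1.74e-05, 4.13e-06 and 2.52e-06 by limma). The call at Diff was made under 12 of the 23 other settings.

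H2-K1 and H2-D1 are close copies. Their longest open reading frames were identical at 91.5% of 1080 aligned bases, and 8.79% of the 50-base stretches of H2-K1 and 14.3% of those of H2-D1 recur in other genes, among them H2-Q1, H2-Q7 and H2-T23. Their separate levels are therefore uncertain, since reads from such stretches could be assigned to either. The reference is that of C57BL/6J, and the H2 haplotype of the line is not given in the sources used here.

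B2m, the light chain shared by class I molecules, was the most abundant of the 10 in every group. The shScram libraries held 4459 and 2678 TPM at Pre, 1261 and 1303 TPM at MCE, and 1540.1 and 1979 TPM at Diff. The shFto libraries held 4004 and 3979 TPM at Pre, 2056 and 2238 TPM at MCE, and 2701 and 2482 TPM at Diff. The groups overlapped at Pre, where the replicate that stood apart was the highest of all, and were separate later. None of the differences of 0.21 ± 0.23 (SE, adjusted p = 0.508 by limma), 0.74 ± 0.23 (0.0595) and 0.57 ± 0.23 (0.122) passed. Without that replicate, all 3 did, at 0.58, 0.74 and 0.57 (adjusted p = 0.0129, 0.000554 and 0.00261 by limma). Without its partner the value at Pre was -0.16 (adjusted p = 0.348 by limma). Set against the summed heavy chains, the B2m level was 0.937 and 0.923 times H2-K1 plus H2-D1 in shScram and 0.778 and 0.810 times in shFto cells at MCE, and 1.29 and 1.64 times against 1.05 and 1.04 times at Diff. At Pre this ratio was 4.80 and 1.82 in shScram and 1.19 and 1.26 in shFto cells, so the shFto libraries were the lower at each stage, without a test.

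Tap1 and Tap2 encode the partners of the peptide transporter, and of them Tap1 passed at all stages, though at MCE under only 12 of the 23 other settings of the fit (highest adjusted p = 0.141 by limma). Tap1 was 18.4 and 55.6 TPM at Pre, 16.3 and 15.6 TPM at MCE, and 16.4 and 18.9 TPM at Diff in shScram cells. In shFto cells it reached 101 and 97.5 TPM at Pre, 45.8 and 45.1 TPM at MCE, and 58.4 and 60.6 TPM at Diff. The groups were separate at every stage. The log2 fold change was 1.60 ± 0.38 (SE, adjusted p = 0.0181 by limma) at Pre, 1.45 ± 0.38 (0.0306) at MCE and 1.70 ± 0.38 (0.0134) at Diff. Without the replicate that stood apart, the value at Pre was 0.82 ± 0.10 and the SE at the later stages was 0.08, and all 3 passed. Without its partner the value at Pre was 2.37.

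Tap2 in shScram cells was 10.9 and 37.1 TPM at Pre, 22.3 and 23.2 TPM at MCE, and 37.0 and 32.1 TPM at Diff. It stood at 53.9 TPM in both shFto libraries at Pre, with 25.0 and 27.9 TPM at MCE and 41.6 and 44.6 TPM at Diff. The shFto libraries were higher at each stage, though by little after Pre. Only the difference at Pre passed, at 1.36 ± 0.42 (SE, adjusted p = 0.0402 by limma), and the values at MCE (0.21 ± 0.42, adjusted p = 0.803) and Diff (0.31 ± 0.42, 0.656) did not. Without the replicate that stood apart they were 0.53, 0.21 and 0.31, and Pre (adjusted p = 0.00643 by limma) and Diff (0.0175) passed. Without its partner the value at Pre was 2.20, and the call there was made under 10 of the 23 other settings. The fold change of Tap1 was above that of Tap2 at each stage, and the difference between the genes was not tested. Of the 50-base stretches, 0.861% of those of Tap1 and 0.737% of those of Tap2 recur in the other gene.

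Tapbp encodes tapasin, the chaperone that holds the heavy chain to the transporter. Its shScram values were 230.4 and 609 TPM at Pre, 189 and 185 TPM at MCE, and 228 and 219 TPM at Diff. The shFto values were 511 and 497 TPM at Pre, 198 and 199 TPM at MCE, and 254 and 262 TPM at Diff. The shFto libraries lay between the discordant shScram replicates at Pre and just above them later. No difference passed, at 0.43 ± 0.35 (SE, adjusted p = 0.359 by limma), 0.09 ± 0.35 (0.910) and 0.21 ± 0.35 (0.728). Without replicate 1 of shScram at Pre the sign at that stage turned to -0.27 ± 0.07 (adjusted p = 0.0167 by limma) and the rise at Diff passed (0.21 ± 0.06, 0.0134). Without replicate 2 it was 1.13 (4.09e-07) at Pre. A correction for GC content gave negative values at all 3 stages, so Tapbp has no fixed direction.

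Psmb8, which encodes the inducible chymotrypsin-like subunit of the immunoproteasome, showed the highest fold change of the 10 genes at every stage. It was 3.34 and 5.59 TPM at Pre, 1.97 and 3.14 TPM at MCE, and 3.91 and 2.07 TPM at Diff in shScram cells. In shFto cells it was 33.3 and 29.5 TPM at Pre, 14.6 and 20.3 TPM at MCE, and 25.4 and 28.4 TPM at Diff. The lowest shFto library was above the highest shScram library of any stage. The mean TPM was 7.03, 6.83 and 8.99 times that of shScram cells, and the log2 fold change was 2.60 ± 0.29 (SE, adjusted p = 0.000775 by limma), 2.38 ± 0.29 (0.000831) and 2.84 ± 0.29 (0.000242). Leaving out the replicate that stood apart gave 2.29, 2.38 and 2.84, all of which passed.

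Psmb9, the inducible subunit that takes the place of the constitutive Psmb6, also passed at every stage. The shScram values were 8.61 and 17.0 TPM at Pre, 7.26 and 7.04 TPM at MCE, and 4.21 and 4.81 TPM at Diff. Those of shFto cells were 35.3 and 28.4 TPM at Pre, 29.5 and 27.2 TPM at MCE, and 28.7 and 27.1 TPM at Diff. Thus the shFto libraries stayed near one level while the shScram libraries were lowest at Diff. The log2 fold change was 1.31 ± 0.26 (SE, adjusted p = 0.00845 by limma), 1.85 ± 0.26 (0.00148) and 2.39 ± 0.26 (0.000293). Without the replicate that stood apart the value at Pre was 0.86 ± 0.15, and all 3 passed.

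Psmb10, the inducible trypsin-like subunit, passed at no stage with all libraries in the fit. In shScram cells it was 29.3 and 130.4 TPM at Pre, 37.0 and 36.3 TPM at MCE, and 39.5 and 30.1 TPM at Diff. In shFto cells it was 145 and 138 TPM at Pre, 58.0 and 63.5 TPM at MCE, and 53.9 and 48.9 TPM at Diff. The shFto libraries were the higher at each stage, at Pre only just above the second shScram replicate. None of the differences of 1.17 ± 0.52 (SE, adjusted p = 0.115 by limma), 0.71 ± 0.52 (0.420) and 0.56 ± 0.52 (0.502) passed. Without replicate 1 of shScram at Pre they were 0.11 (adjusted p = 0.579 by limma), 0.71 (0.000660) and 0.56 (0.00265), so that the later stages passed and Pre did not. Without replicate 2 instead, Pre passed as well, at 2.23 (adjusted p = 4.09e-07 by limma), so the value at Pre rests on which shScram library is kept.

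**Figure D2:**
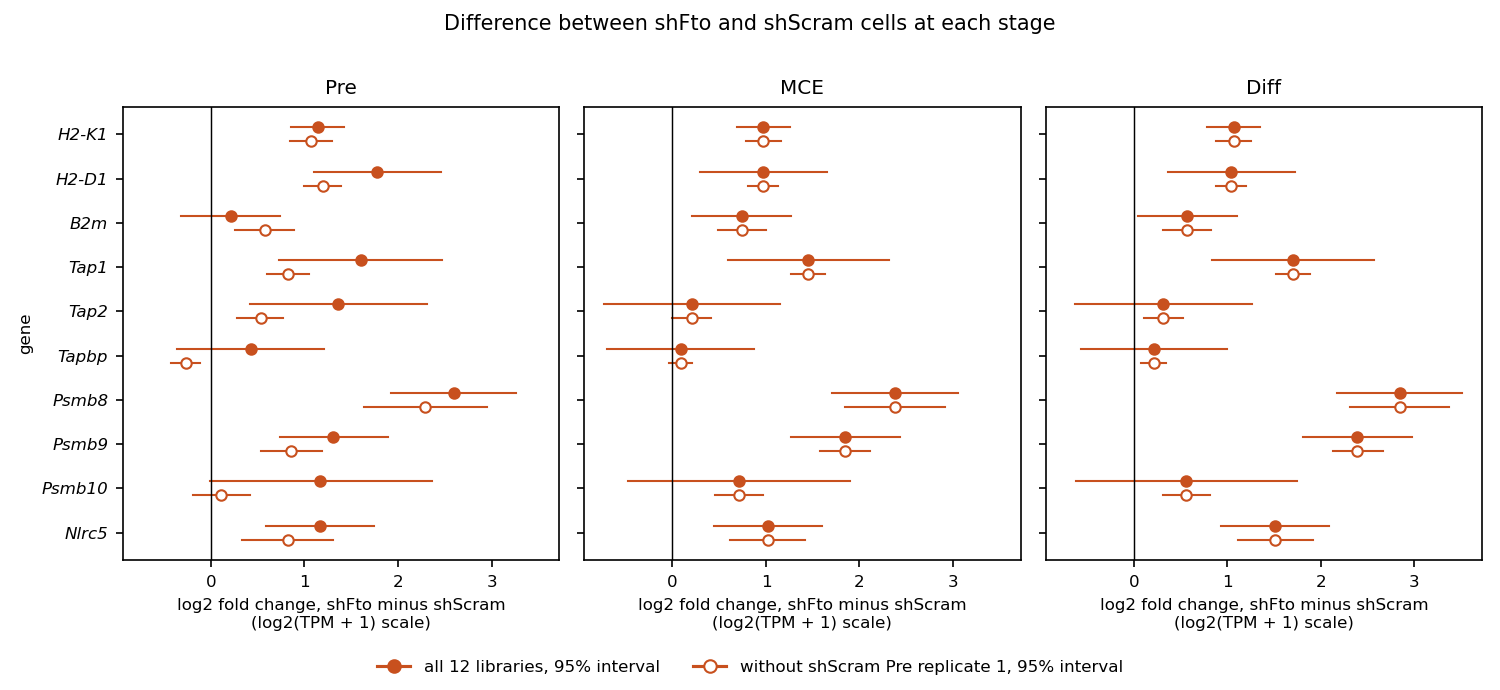
Log2 fold change of the 10 genes between shFto and shScram cells at each stage on the log2(TPM + 1) scale, with 95% confidence intervals from limma; filled circles use all 12 libraries and open circles leave out replicate 1 of shScram at Pre. Psmb8 has the highest value at each stage (2.60, 2.38 and 2.84), and Tapbp at Pre is the one value that changes sign without that replicate (from 0.43 to -0.27).

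In the assembled immunoproteasome Psmb8, Psmb9 and Psmb10 take the places of Psmb5, Psmb6 and Psmb7. TPM is per length, so each pair was set against each other within a library. Psmb8 was 1.50% and 2.10% of Psmb5 in shScram and 10.9% and 14.7% in shFto cells at MCE, and 3.54% and 2.96% against 21.1% and 27.2% at Diff. At Pre the shScram ratios were 16.3% and 3.55% and the shFto ratios 19.4% and 21.1%. The 16.3% came from the replicate that stood apart, in which Psmb5 was 20.4 TPM against 157 TPM in its partner, while Psmb8 there was not raised. Psmb9 was 1.98% to 5.98% of Psmb6 in the shScram libraries and 10.2% to 12.6% in the shFto libraries, and did not overlap. Psmb10 was 20.6% to 78.4% of Psmb7 in the shScram libraries and 26.8% to 54.0% in the shFto libraries, and overlapped widely.

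Averaged over the stages, the log2 ratio differed by 2.38 for Psmb8 to Psmb5 and by 1.80 for Psmb9 to Psmb6 (exact permutation of the lines within each stage, two-sided, p = 0.00926 each, the smallest this design allows, and 0.0139 after Benjamini-Hochberg adjustment over 3 ratios). For Psmb10 to Psmb7 the difference was 0.22 (same exact test, p = 0.565, adjusted p = 0.565). This value rests on the shScram replicates at Pre, being -0.06 without replicate 1 (exact p = 0.750) and 0.50 without replicate 2 (exact p = 0.0370). The constitutive counterpart of Psmb10 itself rose at Pre, where Psmb7 stood at 121 and 166 TPM in shScram libraries and at 274 and 255 TPM in shFto libraries, a log2 fold change of 0.89 ± 0.18 (SE, adjusted p = 0.0109 by limma), with 0.36 ± 0.18 (0.241) at MCE and 0.57 ± 0.18 (0.0573) at Diff. Psmb5 and Psmb6 passed at no stage. Their fold changes were -0.04 each at MCE, and 0.35 (adjusted p = 0.787 by limma) and 0.25 (0.452) at Diff. With replicate 1 of shScram at Pre left out, Psmb7 passed at all 3 stages (0.67, 0.36 and 0.57) and Psmb6 at Diff (adjusted p = 0.0385 by limma).

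**Figure D3:**
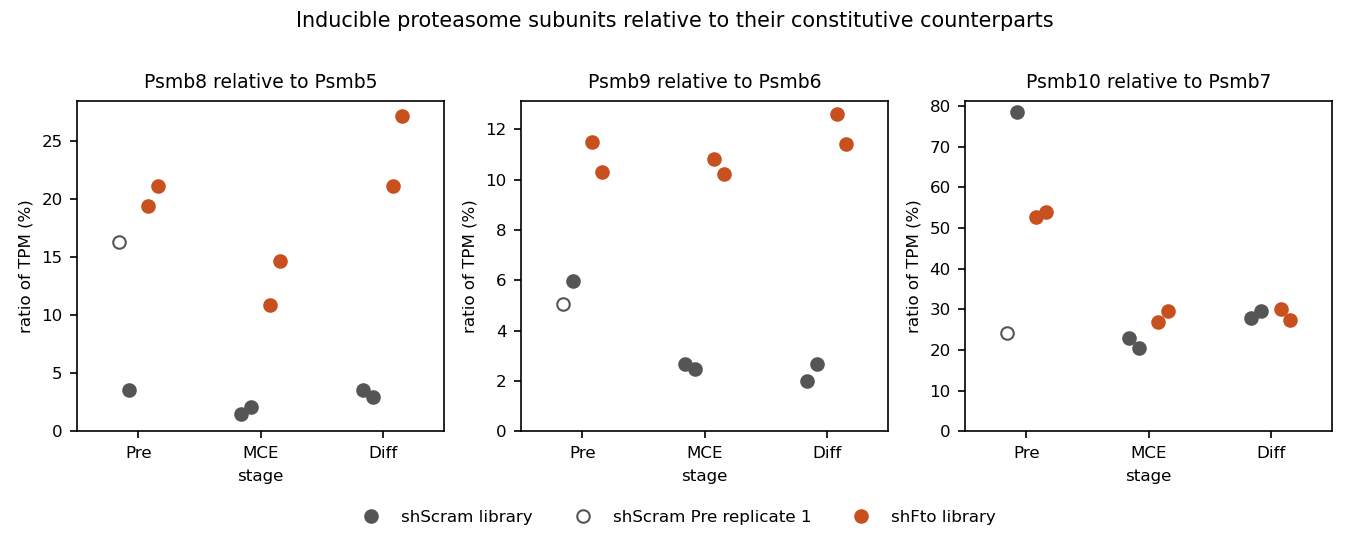
TPM of each inducible proteasome subunit as a percentage of the TPM of its constitutive counterpart in each library by stage, with shScram in grey and shFto in orange; the open circle is replicate 1 of shScram at Pre. The Psmb9 ratio is 10.2% to 12.6% in the shFto libraries and at most 5.98% in the shScram libraries, whereas the Psmb10 ratio overlaps between the lines.

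Nlrc5, the activator of class I genes, was the least abundant member at MCE and was higher in shFto cells throughout. The shScram libraries showed 10.0 and 16.9 TPM at Pre, 1.62 and 1.60 TPM at MCE, and 4.51 and 7.21 TPM at Diff. The shFto libraries showed 27.9 and 33.3 TPM at Pre, 4.28 and 4.31 TPM at MCE, and 19.3 and 17.1 TPM at Diff. Both lines dipped at MCE, and the groups were separate at each stage. The log2 fold change was 1.17 ± 0.25 (SE, adjusted p = 0.0131 by limma), 1.02 ± 0.25 (0.0245) and 1.51 ± 0.25 (0.00336), and the ratio of mean TPM was 2.28, 2.66 and 3.10. The log scale understates the change at MCE, where TPM is low. Without the replicate that stood apart the values were 0.82, 1.02 and 1.51, all of which passed.

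Each gene was also tested alone across the stages, by permuting the line labels within each stage, as a test that needs no model of the spread. The smallest p that this exact two-sided permutation test allows, 0.00926, was reached by 8 of the 10 members and by Fto. Groups that do not overlap at all 3 stages give this p by themselves. These are the same 8 genes, so the count adds nothing to that of overlap. Of all genes, 16.6% did not overlap in this way with shFto higher. Averaged over the stages, the differences were 2.61 for Psmb8, 1.85 for Psmb9, 1.59 for Tap1, 1.26 for H2-D1, 1.23 for Nlrc5, 1.06 for H2-K1, 0.82 for Psmb10 and 0.63 for Tap2. B2m (0.51, exact permutation p = 0.0278) and Tapbp (0.24, exact permutation p = 0.278) were the others. Leaving out replicate 1 or 2 of shScram at Pre moved Psmb10 to 0.46 or 1.17, Tap2 to 0.35 or 0.91 and Tapbp to 0.01 or 0.47, the last with an exact permutation p of 0.00926. Without either shFto library at Pre, Psmb10 (exact permutation p = 0.111) and Tap2 (0.204) no longer passed, and neither did B2m without replicate 2 of shScram at Pre or replicate 1 of shFto at Diff (0.0556 each). Over the 11 genes tested this way the p-values are not adjusted.

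The abundance order of the members was the same in the lines at the top. B2m, H2-D1, H2-K1 and Tapbp were the first 4 by TPM in every group, and did not overlap with their neighbours except in shScram preadipocytes, where H2-D1, H2-K1 and Tapbp did. At MCE the last places were also the same, with Psmb8 and then Nlrc5 in both lines, and at Diff they differed. In shScram cells at Diff, Psmb10 and Tap2 came next with overlapping libraries, then Tap1, Nlrc5 and Psmb9 (these last overlapping) and Psmb8 at 2.99 ± 1.30 TPM (SD, n = 2). In shFto cells at Diff, Tap1 came next after Tapbp at 59.5 ± 1.56 TPM (SD, n = 2), above Psmb10, Tap2, Psmb9 and Psmb8 (the latter pair overlapping), with Nlrc5 last at 18.2 ± 1.49 TPM (SD, n = 2).

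The stage comparison asked how the pathway moved during differentiation in each line. From Pre to MCE several class I transcripts fell in each line, and Nlrc5, B2m and Tapbp passed in both. Of the 23 other settings of the fit, Nlrc5 was called under 22 in shScram and 23 in shFto cells, and B2m under 22 and 17. Tapbp was called under 7 in shScram and 18 in shFto cells, and H2-K1 in shFto cells under 12. In shScram cells 3 of 10 genes passed downward and none upward, against 26.9% of all genes downward and 12.2% upward, namely Nlrc5 (fell by 2.42 on the log2 scale), B2m (fell by 1.43) and Tapbp (fell by 1.00, adjusted p = 0.0475 by limma). In shFto cells 4 of 10 did, against 19.9% of all genes downward and 8.80% upward, namely Nlrc5 (fell by 2.57), Tapbp (fell by 1.34), B2m (fell by 0.90) and H2-K1 (fell by 0.43). In shScram cells this share is near the background. In the fit without replicate 1 of shScram at Pre, 9 members passed downward in shScram and 8 in shFto cells, each against 35.3% of all genes, and the median log2 fold changes were -1.10 and -0.95. Without replicate 2 instead, 3 members passed downward (35.1% of all genes) and 2 upward (29.6%) in shScram cells, the latter being H2-D1 and Tap2. Other scalings moved the median of all genes in the stage comparisons by 0.13 to 0.24 on the log2 scale, so small stage changes have no fixed sign. From MCE to Diff the only member that passed in either line was Nlrc5. It rose by 1.36 ± 0.25 (SE, adjusted p = 0.00561 by limma) in shScram cells (1 of 10 members, against 20.0% of all genes upward and 5.22% downward) and by 1.86 ± 0.25 (0.00115) in shFto cells (1 of 10, against 20.2% upward and 6.48% downward).

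Whether the difference between the lines changed between stages was tested by interaction terms, and no member passed. Of all genes, 5.11% passed between MCE and Pre, 7.67% between Diff and Pre and 2.49% between Diff and MCE. By unadjusted p under 0.05, for which no share of all genes is given, Psmb9 between Diff and Pre was the only member. Psmb9 was also the single member past the study's thresholds of a fold over 2 and an unadjusted p under 0.05 between Diff and Pre, which 10.9% of all genes passed. Its effect was larger at Diff than at Pre by 1.08 ± 0.36 (SE, adjusted p = 0.116 by limma). When replicate 1 of shScram at Pre was left out, Tap1, Tapbp and Psmb9 passed with a larger effect at MCE than at Pre (0.63, 0.36 and 0.98, against 8.17% of all genes) and at Diff than at Pre (0.88, 0.48 and 1.53, against 9.71%). When replicate 2 was left out instead, H2-D1, Tap1, Tap2, Tapbp and Psmb10 passed with a smaller effect at MCE than at Pre (30.5% of all genes) and at Diff than at Pre (30.9%), with Tap1 at -0.92 and -0.67 and Tapbp at -1.04 and -0.92. In that fit B2m passed with a larger effect at both stages (0.90 and 0.73, against 21.9% and 20.0%) and Psmb9 at Diff (0.62). The direction for Tap1 and Tapbp thus turns on which shScram replicate at Pre is kept, and the one kept is assumed to vary like the libraries of the other groups.

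Around the members, 80 other genes tested lie in the same stretch of chromosome 17. Of them 22 were called higher at Pre (27.5%), 3 at MCE (3.75%) and 5 at Diff (6.25%), and 0, 4 and 1 lower, against 15.9%, 10.5% and 11.9% of all genes higher. Class II genes flank the block of Psmb9, Tap1, Psmb8 and Tap2. On one side lie H2-DMa, H2-DMb2 and H2-DMb1, whose products edit class II peptides. H2-DMa was 13.3 to 21.8 TPM as a mean in each group and passed at no stage. H2-DMb2 averaged 3.37, 3.75 and 3.82 TPM in the control line at the successive stages against 8.34, 5.97 and 7.90 TPM in the knockdown line, and H2-DMb1 had 5.74, 3.85 and 5.29 TPM against 8.98, 6.17 and 8.89 TPM. For both, the shFto groups lay above the shScram groups without overlap at all 3 stages, as in 16.6% of all genes. With all libraries in the fit the one call was H2-DMb2 at Pre (1.26, adjusted p = 0.0342 by limma). Without replicate 1 of shScram at Pre, further differences of both genes were called. The log2 fold changes at the successive stages were then 0.55, 0.55 and 0.89 for H2-DMb2 and 0.20, 0.56 and 0.66 for H2-DMb1. On the other side H2-Ob and H2-Aa were at 0 in all 12 libraries and H2-Ab1 was at 0 in all groups but shFto at Diff, with a mean of 0.0590 TPM.

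The other genes of the pathway were given by 7 lists of 86 genes, and the plot of lists shows those tested. Genes named only to account for a small count were named after their values were seen. The counts of every list stand against the background of 15.9%, 10.5% and 11.9% of all genes upward and 12.3%, 7.26% and 9.31% downward at Pre, MCE and Diff, and those without replicate 1 of shScram at Pre against 16.1%, 25.2% and 25.3% upward. Leaving out that replicate changed the calls at MCE or Diff in every list, in both directions in some. The fold changes at those stages stayed the same, so for most lists the median at Pre is given for that fit. Of 12 other class I heavy chains tested, 6 passed upward and 1 downward at Pre, 2 upward at MCE, and 3 upward and 1 downward at Diff, with medians of 0.77, 0.39 and 0.38. The 2 of 12 at MCE are near the background. At Pre these were H2-Q1, H2-Q4, H2-Q6, H2-Q7, H2-T10 and H2-T22 upward and H2-T24 downward. H2-Q4 and H2-Q6 passed upward at MCE, and both of them with H2-Q2 upward and H2-T24 downward at Diff. With replicate 1 of shScram at Pre left out, the median at Pre was 0.45. H2-Q4, a nonclassical heavy chain of the Qa region, changed most among the genes called at both MCE and Diff. It was 13.6 and 25.8 TPM at Pre, 13.9 and 15.7 TPM at MCE, and 18.3 and 21.2 TPM at Diff in shScram cells. In shFto cells it was 196 and 206 TPM, 109 and 113 TPM, and 142 and 136 TPM. The groups were far apart at each stage, and the log2 fold change was 3.36 ± 0.24 (SE, adjusted p = 7.47e-05 by limma), 2.83 ± 0.24 (0.000109) and 2.76 ± 0.24 (8.68e-05). H2-Q6, its neighbour in family, was 0 to 1.77 TPM in the shScram and 2.16 to 4.62 TPM in the shFto libraries and passed at each stage. H2-D1 shares 111 of its 50-base stretches with H2-Q6, and H2-K1 shares 53 with H2-Q4, so these values carry the same uncertainty of assignment.

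Of 9 other genes of peptide loading and trimming, 3 passed upward and 2 downward at Pre, 5 upward at MCE and 3 upward at Diff, with medians of 0.27, 0.54 and 0.45. Beside the genes described next, these were Calr (upward at Pre and MCE), Sec61a1 (upward at Pre), Canx (downward at Pre) and Erap1 (downward at Pre and upward at MCE). In the fit without replicate 1 of shScram at Pre, the median at Pre was 0.35. With all libraries in the fit, Hspa5, Pdia3 and Uggt1 passed at both MCE and Diff. All are general folding factors of the endoplasmic reticulum that also serve many other proteins. At Pre Hspa5 (BiP) had 479 and 545 TPM in shScram libraries and 1031 and 1033 TPM in shFto libraries, and its log2 fold change was 1.01, 0.89 and 0.59 at the successive stages (adjusted p = 0.000829, 0.00114 and 0.00761 by limma). Pdia3, the disulfide isomerase of the loading complex, rose by 0.93 (adjusted p = 0.00742 by limma) at MCE and 0.59 (0.0456) at Diff, and had 0.27 (0.266) at Pre. Uggt1, which checks glycoprotein folding, rose by 0.70 and 0.53 at MCE and Diff.

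Among 14 constitutive subunits and activators of the proteasome, 2 passed upward at Pre, 2 at MCE and none at Diff, where 1 passed downward, with medians of 0.12, 0.08 and 0.21, so that the upward counts at Pre and MCE are near the background of 15.9% and 10.5%. Upward these were Psmb7 and Psma1 at Pre and Psmb2 and Psma1 at MCE, and downward Pomp, an assembly factor, at Diff. When replicate 1 of shScram at Pre was left out, the median at Pre was -0.04. The inducible subunits Psmb8 and Psmb9 had log2 fold changes of 1.31 to 2.84, and Psmb10 had 1.17, 0.71 and 0.56 at the successive stages, none called. The highest of these 14 at any stage was the 1.42 ± 0.71 of Psmb5 at Pre (SE, adjusted p = 0.154 by limma), which was -0.02 without the replicate that stood apart. In that fit Psmb9 at Pre was 0.86, beside 0.67 for Psmb7.

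Among 19 transcription factors and partners tested, 1 passed upward at Pre, 6 at MCE and 5 at Diff, where 1 passed downward. The medians were -0.08, 0.25 and 0.16, and the one at Pre was -0.12 without replicate 1 of shScram at Pre. Stat2 (1.51 at MCE and 2.10 at Diff), Irf7 (1.20 and 2.20) and Irf9 (1.09 and 1.10), which carry or amplify the interferon response, rose at both later stages. At Pre their values were -0.08, 0.49 and 0.20, none of which passed (adjusted p = 0.666, 0.0908 and 0.256 by limma). Stat3 was the one that passed at Pre, with 0.42 there, 0.49 at MCE and 0.75 at Diff, all called, and Nfyc, a subunit of NF-Y, was the one that passed downward at Diff. Irf1, a direct activator of class I and immunoproteasome genes, passed at MCE (0.70, adjusted p = 0.0118 by limma), with 0.17 (0.383) at Pre and 0.28 (0.227) at Diff, where it passed without replicate 1 of shScram at Pre (0.0222). Rfx5, the DNA-binding partner of Nlrc5, had -0.34 (adjusted p = 0.0808 by limma), 0.02 (0.957) and 0.34 (0.104).

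Of 8 interferon ligands, receptors and kinases tested, 1 passed upward at Pre, 1 downward at MCE and 1 in each direction at Diff. The medians were 0.11, 0.08 and -0.07, and the one at Pre was -0.00 without replicate 1 of shScram at Pre. Ifngr1, a receptor chain for interferon gamma, fell by 0.56 at MCE (adjusted p = 0.00942 by limma) and by 0.58 at Diff (0.00676). Ifnar2, a chain of the type I interferon receptor, passed upward at Diff. The one that passed at Pre was Ifnb1, which encodes interferon beta and was listed at 0 in both shScram libraries and had a mean of 1.42 TPM in shFto cells, near the limit of the filter. Ifng and Ifna4 were below the filter.

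Of 6 negative regulators tested, 2 passed upward and 1 downward at Pre, and 3 passed upward at MCE and at Diff. The one downward was Ptpn2. The medians were 0.53, 0.59 and 0.69, and the one at Pre was 0.37 without replicate 1 of shScram at Pre. Socs3, which limits cytokine signals, had differences of 1.74, 1.64 and 2.52 at the successive stages, all called. Usp18, an interferon-induced brake on the interferon receptor, had 1.28, 1.85 and 1.66, all called, and Trim30a rose by 0.99 and 1.04 at MCE and Diff. The mean of Usp18 was 359 TPM in shFto against 149 TPM in shScram preadipocytes, and 15.0 against 3.42 TPM at MCE.

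**Figure D4:**
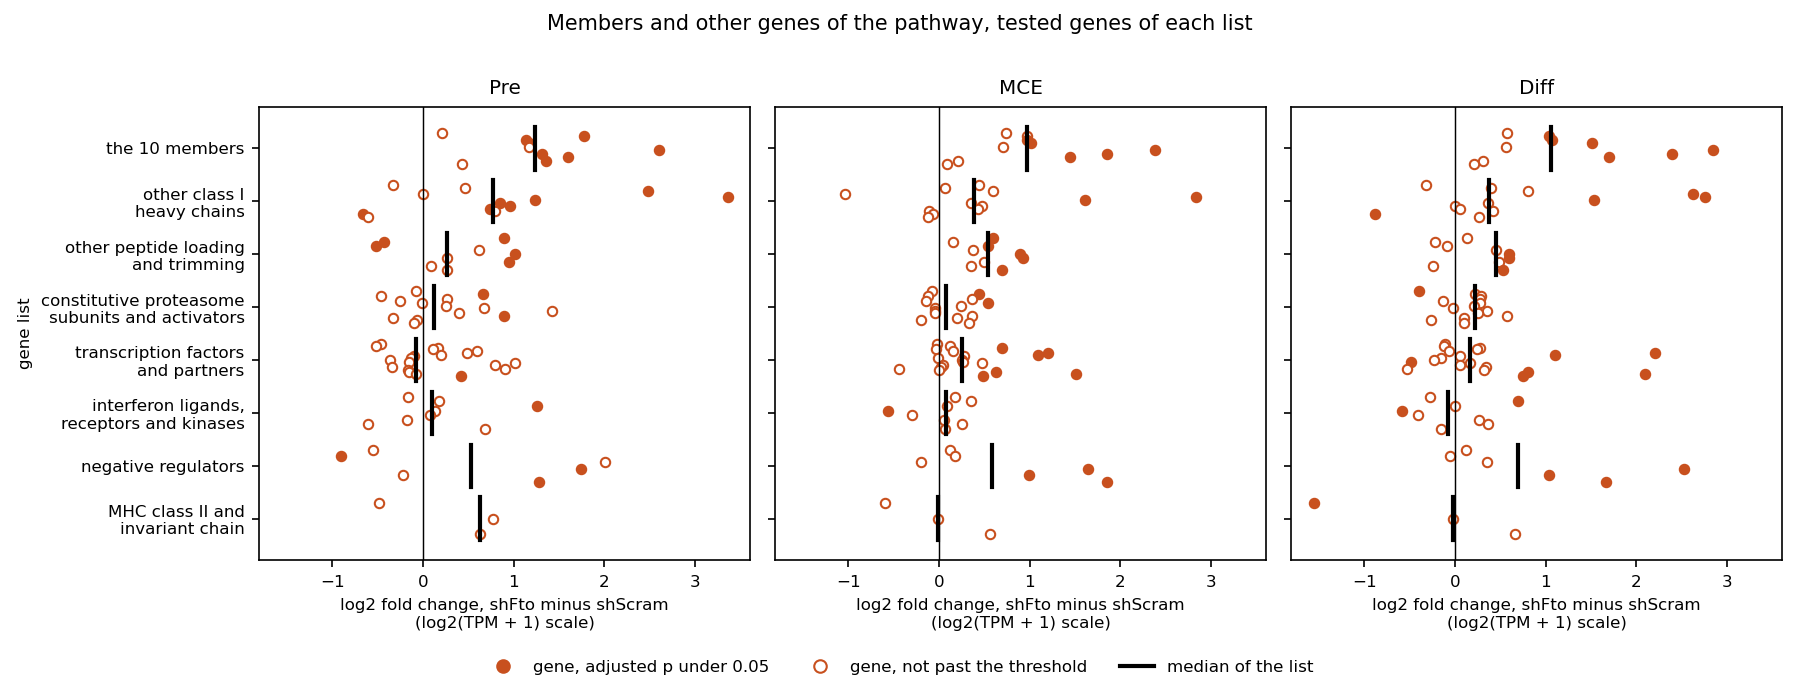
Log2 fold change between shFto and shScram cells at each stage for the 10 members and for the tested genes of 7 other lists, 1 circle a gene, filled where the adjusted p from limma is under 0.05, with a black bar at the median of the list. The members have medians of 1.24, 0.97 and 1.05, above the median of each other list at every stage, and single genes of other lists reach as far, such as H2-Q4 with 3.36 at Pre.

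Class II transcripts, which serve presentation to helper T cells, were mostly undetected. Of the 9 listed genes 3 passed the filter, and H2-Aa, H2-Eb1 and H2-Ob were at 0 in every library. None of the 3 passed upward at any stage, and Cd74, the invariant chain, passed downward at Diff, where its mean was 15.5 TPM in shFto and 48.0 TPM in shScram cells (log2 fold change -1.56, adjusted p = 0.000544 by limma). With replicate 1 of shScram at Pre left out, 1 passed upward and 1 downward at MCE and at Diff. The summed class II list was 97.9 to 107 TPM in shFto and 119.9 to 121 TPM in shScram preadipocytes. Adipocyte markers moved with the groups as well. Their 8 genes summed to 279.8 to 294 TPM in shScram and 66.3 to 72.3 TPM in shFto cells at MCE, and to 1228 to 1268 TPM against 144 to 170.3 TPM at Diff. At Pre they summed to 18.0 to 18.4 TPM in shScram and 16.6 to 18.7 TPM in shFto cells. The part of differentiation state in the class I differences was not tested.

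As a description, members were compared with all other genes by the Pearson correlation of log2(TPM + 1) with the mean standardised profile of the 10 members over the 12 libraries, which include the replicate that stood apart. Among 10790 genes of a mean TPM of 5 or more outside the members, the nearest were Shisa5 (r = 0.981), Tmem268 (0.978), Ercc1 (0.972), Kansl2, Dgkz and Cox18 (0.967 each), Mta1 and Fmnl3 (0.966 each), Nuak1 (0.964) and Tmem199 (0.963). Without that replicate their r was 0.966 to 0.992 over 11 libraries. The members themselves ranged from 0.686 for B2m to 0.993 for Tap1 over the 12 libraries. Each member is a part of the profile, which the other genes are not. Without that replicate the members ranged from 0.747 for Tapbp to 0.991 for Tap1 over 11 libraries, and B2m had 0.968. At Pre, Shisa5 had 128 and 227 TPM in shScram libraries and 370.0 and 345 TPM in shFto libraries, with 123 and 109 TPM against 226 and 214 TPM at Diff. Between single members over the 12 libraries, r ran from 0.15 for H2-D1 with B2m to 0.95 for H2-K1 with Psmb9. With all libraries sharing stages and lines no test applies.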

How the data were processed

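RNA libraries from 3T3-L1 cells were analysed from 1 table of TPM values, deposited by the authors, with a column for each of 12 libraries. The paper describes short fragments with an added poly(A) tail for the m6A eluate and its input control, and paired reads for RNA-seq. The read length of these libraries was not established here. The submitters' notes name Trim Galore 0.6.5, HISAT2 2.1.0, StringTie 2.1.4, DESeq2 1.30.1 and GRCm38, and use of strand is not given in the sources used here. TPM keeps no read depth, so the depth is unknown and no counting interval was given.

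Of 55487 genes, the 15968 that reached a TPM of 1 in 2 or more libraries were kept. On log2(TPM + 1), limma 3.58.1 (R 4.3.3) was fitted with a mean per group over all libraries (6 residual degrees of freedom, trended prior), and p-values were adjusted by Benjamini-Hochberg over all genes tested. A gene was called where the adjusted p was under 0.05. Fold changes on this scale understate those of low genes. Values averaged over stages were tested by exact two-sided permutation within stages. On simulated data of 15968 genes for the knockdown at MCE, 89 of 200 genes changed by a log2 of 1 were called, and 2 unchanged genes. The simulation gave every group the same spread per gene. In the data the shScram pair at Pre varied more, and 17.8% of all genes were called at MCE. The simulated counts therefore do not measure how many changes were found or missed in the data.

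Samples were grouped by title, which for replicate 1 of shScram at Diff contradicts its treatment label. The members and lists were chosen with earlier results of these data known. Named were all members, Fto, Psmb5, Psmb6, Psmb7, Irf1, Rfx5, 1 further transcription factor that is not reported here, up to 4 genes per list with the highest absolute fold change among those called at both MCE and Diff, and the 10 genes most like the members. Gene positions came from GENCODE M21 on GRCm38 (99.4% of gene IDs found), promoters from RefSeq. Alternatives were 23 settings of the fit, among them other pseudocounts, filters, scalings, a GC correction, library weights, a replicate block and each library left out. Libraries of rhein treatment and of m6A immunoprecipitation were not analysed here.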

Additional observations from a re-analysis of the deposited data

How the results depend on the processing

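Across the 23 settings of the fit, H2-K1, Psmb8 and Psmb9 were called at MCE and at Diff under each, and Nlrc5 at Diff under each. Among the other calls, Tap1 was called under 19 at Pre, 12 at MCE and 19 at Diff, Nlrc5 under 19 at Pre and 18 at MCE, H2-D1 under 22 at Pre and 12 at Diff, Tap2 under 10 at Pre, and H2-K1, Psmb8 and Psmb9 under 22, 21 and 20 at Pre. Of 690 knockdown fold changes of members, 589 kept their direction and side of the threshold, 59 lost and 37 gained the call, and 5 changed sign. Of 920 stage changes, 780 kept both, 41 lost and 78 gained the call, and 21 changed sign. The causes were not tested. A fit of only the libraries of the contrast called 0 members at Pre, where it called 0 of all genes, 8 at MCE (22.9% of all genes upward) and 10 at Diff (23.1%) in the knockdown comparisons, 0 (3.16% of all genes in either direction, as are the shares that follow) from Pre to MCE and 5 (40.4%) from MCE to Diff in shScram cells, 8 (50.1%) and 8 (54.4%) in shFto cells, and 1 (16.9%) between Diff and MCE. Library weights called 3 (2.64%) at Pre and 8 (44.0%) at MCE, 5 (47.5%) from MCE to Diff in shScram cells, 8 (53.7%) and 7 (58.1%) in shFto cells, and 1 (18.5%) between Diff and MCE. Without a filter 3 (7.26%) were called at MCE and 2 (13.3%) from Pre to MCE in shFto cells. From MCE to Diff in shScram cells, median-ratio scaling called 3 (22.7%), quantile normalization 2 (17.8%) and the GC correction 2 (32.9%). Median-ratio scaling called 2 in each stage step of shFto cells (28.3% and 28.1%). The GC correction called 8 (44.1%) from Pre to MCE in shScram cells, 1 (10.1%) between MCE and Pre, and 2 (15.0%) between Diff and Pre, where quantile normalization called 1 (8.29%) and the study's thresholds 1 (10.9%).

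The GC correction turned Tapbp to -0.49 (adjusted p = 0.00315 by limma), -0.10 and -0.07 at the 3 stages of knockdown, Tap2 from Pre to MCE in shScram cells to -0.14, and B2m from MCE to Diff in shFto cells to -0.05. From MCE to Diff in shScram cells, median-ratio scaling, quantile normalization and the GC correction turned Tap1 to -0.13, -0.09 and -0.04 and Psmb8 to -0.05, -0.28 and -0.03, and the first turned Tapbp to -0.02. From Pre to MCE in shFto cells they turned Psmb9 to 0.07, 0.03 and 0.08, and the first and last turned H2-D1 to 0.05 and 0.02.

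With each library left out in turn, 3 (without shFto replicate 1 at Pre) to 9 members were called at Pre, 3 (without any 1 library of MCE) to 8 at MCE, and 4 (without any 1 library of Diff) to 10 at Diff, the highest counts each with 1 of the shScram replicates at Pre left out, whichever it was. The share of all genes called ran from 7.32% to 62.8% at Pre, 7.61% to 41.0% at MCE and 10.3% to 45.7% at Diff. The counts were 2 to 9 and 0 to 6 for the stage steps of shScram cells and 1 to 9 and 1 to 5 for those of shFto cells. They were 0 to 6 between MCE and Pre and 0 to 7 between Diff and Pre, highest without shScram replicate 2 at Pre, where 5 of the 6 and 5 of the 7 were smaller effects than at Pre. The knockdown value at Pre ran from -0.16 to 0.58 for B2m and from -0.27 to 1.13 for Tapbp. From Pre to MCE in shScram cells Tap2 ran from -0.68 to 0.99 and Psmb10 from -1.80 to 0.31. From MCE to Diff in shScram cells Psmb8 ran from -0.19 to 0.49 and Psmb10 from -0.27 to 0.11, and Psmb9 in shFto cells from -0.08 to 0.03. The Psmb10 to Psmb7 ratio ran from -0.06 to 0.50.

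Deviations of same-numbered libraries correlated at -0.29 to 0.172, so the numbers do not pair the samples. With a replicate block 7, 5 and 6 members were called at the 3 stages of knockdown, and 2 and 3 from Pre to MCE in shScram and shFto cells. TPM limits what can be said of Psmb8, Psmb9 and Nlrc5 in shScram cells, which were under 10 TPM in most libraries.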
